A study of Mus musculus with 10 samples.

Results

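The cytosolic ribosomal protein genes are the protein-coding genes whose mouse symbol is Rpl or Rps with a number and at most a short suffix, together with Rplp0, Rplp1, Rplp2 and Rpsa. S6 kinases and Rpl7l1 were left out. The rule took 82 of the 43629 genes listed, 50 of the large ribosomal subunit and 32 of the small subunit, and it used symbols only, no measured value. The kidneys came from male UM-HET3 mice, a genetically heterogeneous stock in which littermates differ in genotype. The 6 control kidneys came from mice kept on control diet (Purina 5LG6), and the 4 rilmenidine kidneys from littermates given the same diet with 10 ppm rilmenidine, an imidazoline receptor agonist used against hypertension, for 1 month from 3 months of age. All animals were 4 months old, and each library was 1 kidney sample from 1 mouse. The comparison asks which kidney transcripts differ after a month of the drug.

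The cytosolic ribosome is built from ribosomal RNA and one copy each of most of these proteins, so that their genes are transcribed in every cell, the renal tubule included. Most of their mRNAs carry a 5′ terminal oligopyrimidine tract, a C at the start followed by an unbroken run of C and T, through which mTORC1 and LARP1 control their translation. Mammalian genomes also hold many processed pseudogenes of ribosomal protein mRNAs, retrotransposed copies that often keep nearly the whole coding sequence.

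The start tract was readable in the RefSeq promoters of many members. RefSeq promoters (GRCm38.p6, 250 bases before and 50 bases from the start on) matched 62 of the 82 members, with 74 entries. The windows below are shown because they hold the letter run that marks this mRNA class. Each runs from 12 bases before the annotated start to 18 bases from it on, with the C and the pyrimidines that follow it in capitals. The Rpl10 window has no such tract within 3 bases of the annotated start, like most member promoters (below), and is shown for contrast. Whether the annotated starts are the ones used in kidney was not tested. The positions are chr14:18270969-18270998 on the minus strand for Rpl15, chr2:39005114-39005143 on the minus strand for Rpl35, chr11:114668568-114668597 on the plus strand for Rpl38, chr17:27635227-27635256 on the minus strand for Rps10, chr4:86857350-86857379 on the minus strand for Rps6 and chrX:74270804-74270833 on the plus strand for Rpl10.
Rpl15: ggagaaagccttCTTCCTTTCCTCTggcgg
Rpl35: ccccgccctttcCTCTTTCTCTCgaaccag
Rpl38: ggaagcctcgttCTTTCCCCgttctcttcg
Rps10: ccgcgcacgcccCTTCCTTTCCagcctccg
Rps6: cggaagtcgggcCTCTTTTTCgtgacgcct
Rpl10: gttacagtggaagataggccgcctatataa

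A C followed by at least 4 pyrimidines stood exactly at the RefSeq start in 13 of 74 member promoters (17.6%), against 823 of all 32851 promoters (2.51%). Within 3 bases of the start it stood in 26 member promoters (35.1%), against 11.5% of all promoters. The large subunit had it at the start in 15.6% of its promoters and the small subunit in 20.7%. On either strand, the letters CCGGAAG, which hold the core bound by ETS factors such as GABPA, were found in 27 member promoters (36.5%), against 8.86% of all. AAGATGG, the core of the YY1 motif, which can overlap a start codon, was found in 11 (14.9%) against 6.34%. CACGTG, the E-box bound by MYC, was found in 8 (10.8%) against 7.15%, and TATAAA in 7 (9.46%) against 13.6%. CCGGAAG and AAGATGG can overlap in the letters AAG.

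Near-identical genomic copies were the second sequence feature of the family, and they bear directly on the counts. A copy was another annotated gene (GENCODE M21, GRCm38) whose transcript matched at least 80% of the last 200 coding bases of a member at 95% identity or more. Such a copy existed for 77 of the 82 members (93.9%), and 22 members had at least 10. Among other protein-coding genes that passed the filter on low counts, 9.51% had one. Rpl8, Rps21, Rpl3l and Rpl39l were among those with none. Of the 502 copies used here, 488 were annotated as pseudogenes.

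The coding ends below are shown for pairs in which the counts were split unevenly between the member and its copy. Each line gives 90 coding bases, the last that the annotated copy covers, from the GENCODE M21 transcripts, with bases that differ between the pair in capitals. Rps29 lies on chromosome 12 and Gm14303 on chromosome 2, and the pair is the same over all 171 coding bases.
Rps29: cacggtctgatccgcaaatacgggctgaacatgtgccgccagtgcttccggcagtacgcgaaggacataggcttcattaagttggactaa
Gm14303: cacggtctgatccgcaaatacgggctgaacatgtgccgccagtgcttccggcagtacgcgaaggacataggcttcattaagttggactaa
Rpl26 lies on chromosome 11 and Gm15772 on chromosome 5, and they differ at 2 of 438 coding bases, none of them in this stretch.
Rpl26: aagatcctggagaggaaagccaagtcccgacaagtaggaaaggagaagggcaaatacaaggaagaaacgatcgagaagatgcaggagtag
Gm15772: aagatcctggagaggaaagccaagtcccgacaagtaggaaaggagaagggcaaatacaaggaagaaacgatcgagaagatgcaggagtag
Rpsa lies on chromosome 9 and Rpsa-ps10 on chromosome 3, and they differ at 6 of the 885 coding bases the copy covers.
Rpsa: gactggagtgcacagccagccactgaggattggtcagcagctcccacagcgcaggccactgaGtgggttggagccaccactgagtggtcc
Rpsa-ps10: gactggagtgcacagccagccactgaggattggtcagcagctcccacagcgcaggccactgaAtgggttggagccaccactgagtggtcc
Rps3a1 lies on chromosome 3 and Rps3a3 on chromosome 13, and they differ at 9 of 795 coding bases.
Rps3a1: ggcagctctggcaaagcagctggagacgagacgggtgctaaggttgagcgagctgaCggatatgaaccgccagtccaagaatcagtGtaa
Rps3a3: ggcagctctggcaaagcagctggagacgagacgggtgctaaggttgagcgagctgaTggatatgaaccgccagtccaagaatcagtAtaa

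The libraries held 863605 to 2559118 counts in the controls and 1813465 to 3232063 in the rilmenidine kidneys. The extraction text in the labels speaks of liver, while the tissue label is kidney. Kap, a proximal tubule protein, stood at 31036 to 58838 CPM, that is counts relative to an RLE-normalized library size, and Slc34a1, the proximal phosphate transporter, at 5018 to 6922 CPM, while Alb, the defining hepatocyte transcript, stood at 0 to 11.8 CPM. Malat1, a nuclear long noncoding RNA, differed widely between the libraries. It stood at 280, 1307 and 2074 CPM (lowest, median and highest) in the controls and at 334, 346, 302 and 389 CPM in the rilmenidine kidneys, and only controls 2 and 6 were near the rilmenidine level. Of 13 marker lists for kidney and other cell types, the summed principal cell markers Aqp2, Aqp3 and Scnn1g stood at 112 to 155 CPM in the controls and 165 to 191 CPM with rilmenidine, without overlap, and the groups overlapped in the other 12. Their part in the levels below was not tested. Acta1 and Ckm of skeletal muscle and Cd79a of B cells were at 0 in every kidney. In bulk kidney RNA a difference in RNA per cell cannot be told apart from a difference in the number of cells of a type.

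Counts on the members' own rows made up a small and variable share of each library. Counts on their copies are not in this share and are given below. The large subunit members took 0.350%, 0.390% and 0.486% of the counts (lowest, median and highest) in the controls and 0.497%, 0.454%, 0.496% and 0.471% in the rilmenidine kidneys. The small subunit members took 0.290%, 0.344% and 0.430% in the controls and 0.424%, 0.380%, 0.451% and 0.383% in the rilmenidine kidneys. Both subunits together took 0.750% ± 0.104 (SD, n = 6) of the control counts and 0.889% ± 0.0540 (SD, n = 4) of the rilmenidine counts. Control 6, at 0.916% (95% exact interval 0.904 to 0.928%), stood inside the rilmenidine range of 0.834 to 0.947%, and the other 5 controls stood below it. Control 6 was also the deepest control library, at 2559118 counts, and the one with the lowest Malat1. The intervals cover counting error only. The ratio of large to small subunit counts was 1.15 ± 0.0525 (SD, n = 6) in the controls and 1.17 ± 0.0545 (SD, n = 4) with rilmenidine, a difference smaller than the spread within either group.

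**Figure D1:**
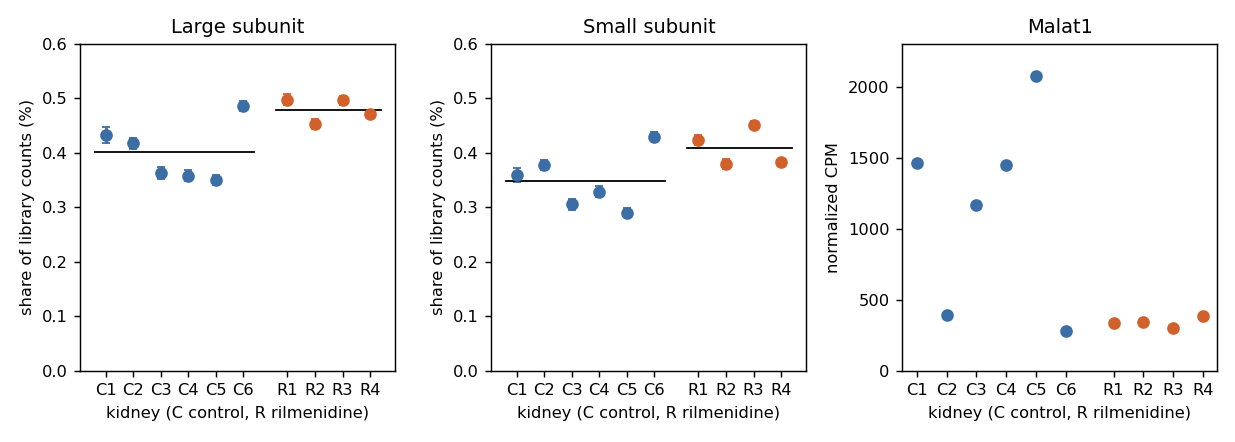
Share of library counts on large and small subunit members in each kidney, in percent, with 95% exact binomial intervals and group means as lines, beside Malat1 in normalized CPM. Control 6 (C6) has the highest control share, 0.486% for the large subunit, and the lowest Malat1, 280 CPM.

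Across the family, most members stood higher in the rilmenidine kidneys by a modest amount, and no single member passed the test over all genes. The median log2 fold change was 0.27 over the large subunit members tested, or 1.20-fold, and 0.35 over the small subunit members, or 1.28-fold. The filter of at least 6 counts in 7 of the 10 kidneys kept 59 members, 36 large and 23 small. With edgeR's quasi-likelihood test and Benjamini-Hochberg adjustment over 10055 genes, 0 members had an adjusted p under 0.05, and over all genes 0 were called too (0%). At an unadjusted p under 0.05, 24 of 59 members were higher with rilmenidine, against a background of 4.43% of all genes tested, and 1 was lower, against 6.13%. DESeq2's Wald test called 1 member, Rplp1, and 60 genes in all (0.597%). A filter of 1 count in any kidney called 4 of 81 members (Rplp1, Rps14 and Rpl29 higher, Rps2 lower), against 0.874% of all genes in that fit. Of these 4, Rpl29 and Rps2 had widely separated levels with low kidneys in both groups, as described below. Without control 6, Rplp1 was called (adjusted p = 0.0457), against 0.365% of all genes. The log2 fold change was above 0 in 47 of 59 members, against 50.3% of all genes, whose median was 0.002. These counts cover the members that passed the filter, not all members.

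**Figure D2:**
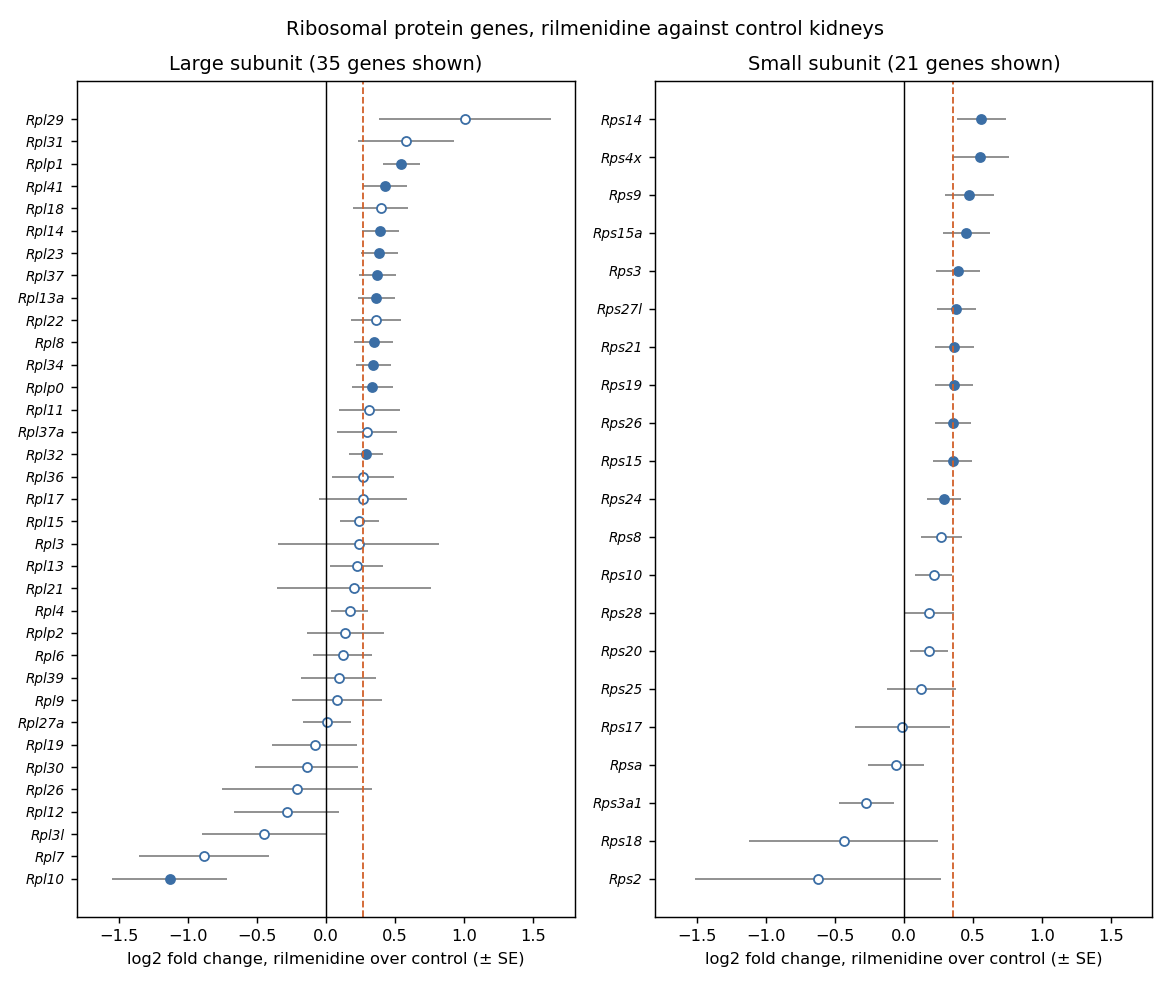
Log2 fold change with its standard error for 35 large and 21 small subunit members, with filled points where the unadjusted p is under 0.05 and a dashed line at the median of all tested members of each subunit. Of the 56 points 44 lie to the right of 0, and Rpl10 at -1.13 is the 1 filled point to the left.

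Transcript length, library depth and Malat1 moved with this pattern. The median transcript length of the members was 882 bases, against 3025 for all genes tested. The 682 other tested genes with transcripts under 1000 bases had a median log2 fold change of 0.20, stood above 0 in 77.3%, and 17.0% of them were higher at an unadjusted p under 0.05. With the log2 library size in the fit, 4 of 59 members instead of 24 were higher at that threshold, beside 2.17% of all genes instead of 4.43%, with a median over all tested members of 0.23. With log2 Malat1 in the fit, 2 of 59 were, beside 1.48% of all genes, with a median of 0.085. The part of length, depth and Malat1 in the higher levels was not tested, and depth and Malat1 differ between the groups.

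**Figure D3:**
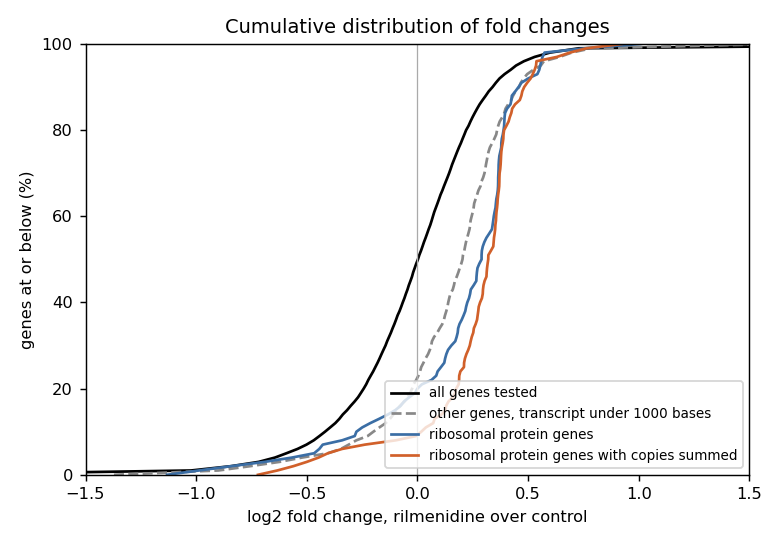
Cumulative distribution of the log2 fold change for all 10055 genes tested, for the 682 other genes with transcripts under 1000 bases, for the 59 members tested and for the 77 members tested once copies were summed. At the middle of the distribution the member curves lie to the right of the curve for all genes, with medians of 0.29 and 0.32 against 0.002, and the short transcripts lie between, with a median of 0.20. Toward both ends the curves cross.

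The P stalk, on which translation factors dock, held the member with the smallest p. Rplp1 (ENSMUSG00000007892, chr9:61913284-61914542), an acidic stalk protein, stood at 267, 302 and 396 CPM (lowest, median and highest) in the controls and at 498, 484, 455 and 399.9 CPM with rilmenidine. The groups did not overlap, which held for 0.796% of all genes in this direction. Its log2 fold change was 0.55 ± 0.13 (SE; adjusted p = 0.211). Rplp0, the stalk's base, stood at 113, 144 and 175 CPM in the controls and at 211, 144, 192 and 186 CPM with rilmenidine, a log2 fold change of 0.34 ± 0.15 (SE) with an adjusted p of 0.441. The groups overlapped, with rilmenidine 2 at the control median. Rplp2, the other acidic protein, had 0.14 ± 0.28 (SE), and Rpl12, at the foot of the stalk, -0.29 ± 0.38 (SE), both from few counts (300 and 81 in all). The copies of Rpl12 held 1219 counts. With them its log2 fold change was 0.24 ± 0.13 (SE; adjusted p = 0.539), so that its direction turned.

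Rpl5 and Rpl11 carry the smallest ribosomal RNA into the large subunit and bind MDM2 when ribosome assembly is disturbed. Rpl5 held 52 counts over the 10 kidneys and was not tested, while Gm15500, a pseudogene that matches its coding end at every base compared, held 5370. Rpl11 stood at 10.9, 16.2 and 22.7 CPM in the controls and at 17.7, 21.5, 20.03 and 24.7 CPM with rilmenidine, a log2 fold change of 0.31 ± 0.22 (SE) with an adjusted p of 0.651. All 4 rilmenidine kidneys were above the control median and the groups overlapped. Around the exit tunnel, through which the new peptide leaves, 6 of 8 listed members were tested and 4 had a log2 fold change above 0, against 50.3% of all genes. Rpl22, a large subunit protein whose paralog Rpl22l1 held 10 counts in all, stood at 88.0, 128 and 171 CPM in the controls and at 194, 159, 159 and 165 CPM with rilmenidine. Its log2 fold change was 0.36 ± 0.18 (SE; adjusted p = 0.495). Rpl39 had 0.09 ± 0.27 (SE), and its paralog Rpl39l held 6 counts.

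Among the remaining large subunit proteins, 21 of 25 tested had a log2 fold change above 0, against 50.3% of all genes, and 9 were higher at an unadjusted p under 0.05, against 4.43%. Rpl23 stood at 324, 401 and 473 CPM in the controls and at 537, 519, 583 and 448 CPM with rilmenidine, a log2 fold change of 0.39 ± 0.13 (SE; adjusted p = 0.313). Rpl14 had 0.39 ± 0.13 (SE; adjusted p = 0.317), and all of its rilmenidine kidneys, at 92.8, 102, 90.8 and 78.9 CPM, were above the control median of 67.5 CPM. In both genes 1 rilmenidine kidney, replicate 4, lay within the control range. Rpl13a stood at 340.1, 397 and 483 CPM in the controls and at 597, 429, 583 and 499 CPM with rilmenidine, a log2 fold change of 0.36 ± 0.13 (SE; adjusted p = 0.34). Rpl4 stood at 545, 702 and 850.0 CPM in the controls and at 730.0, 737, 820 and 811 CPM with rilmenidine. Its difference of 0.17 ± 0.14 (SE; adjusted p = 0.695) was no larger than the spread between kidneys.

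Of the 7 large subunit members below 0, 6 held 81 to 120 counts over the 10 kidneys, and Rpl26 held 1616. With copies summed, Rpl7, Rpl12, Rpl19, Rpl26 and Rpl30 stood above 0, and Rpl10 and Rpl3l stayed below. Rpl10, which completes the large subunit late in its assembly, stood at 2.69, 6.10 and 10.7 CPM in the controls and at 2.29, 4.29, 2.76 and 1.85 CPM with rilmenidine. All 4 rilmenidine kidneys were below the control median. Its log2 fold change was -1.13 ± 0.42 (SE; adjusted p = 0.339) on 81 counts in all, and its retrogene Rpl10l held 0 counts. Rpl7 had -0.88 ± 0.47 (SE; adjusted p = 0.528) on 94 counts, and with its copies 0.27 ± 0.14 (SE; adjusted p = 0.504) on 1220 counts. Rpl3l, the paralog of Rpl3 best known from striated muscle, had -0.45 ± 0.45 (SE; adjusted p = 0.77) on 119 counts, and Rpl3, near the peptidyl transferase centre, 0.24 ± 0.58 (SE; adjusted p = 0.931) on 146.

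In the small subunit, 13 of 23 tested members were higher at an unadjusted p under 0.05, beside the same 4.43% of all genes, and 0 were lower. Rps14, a platform protein, stood at 214, 261 and 404 CPM in the controls and at 442, 447, 473 and 348 CPM with rilmenidine, a log2 fold change of 0.56 ± 0.18 (SE; adjusted p = 0.286). Of the rilmenidine kidneys, 3 lay above the highest control. Its pseudogene Gm5805 held 7439 counts, against 6973 on Rps14.

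Rps26, at the mRNA exit, had 0.36 ± 0.13 (SE; adjusted p = 0.339), with control levels of 183, 204 and 269 CPM and rilmenidine levels of 301, 258, 282 and 253 CPM. Rps19, a head protein whose gene is the one most often mutated in Diamond-Blackfan anaemia, stood at 190.1, 236 and 272 CPM in the controls and at 342, 279.9, 309 and 275 CPM with rilmenidine. The groups did not overlap, and the log2 fold change was 0.36 ± 0.14 (SE; adjusted p = 0.345). Over the whole family the groups did not overlap upward in 3 of 59 members, Rplp1 and Rps19 among them, against 0.796% of all genes. No member's groups were apart downward, against 0.875% of all genes. Rps24 had 0.29 ± 0.12 (SE; adjusted p = 0.427).

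Paralogs of the small subunit could be followed in part. Rps27l, induced by p53 in other settings, stood at 137, 175 and 215 CPM in the controls and at 242, 219.8, 245 and 208 CPM with rilmenidine, a log2 fold change of 0.38 ± 0.14 (SE; adjusted p = 0.346), while Rps27 held 11 counts in all. Rps4x, the X-linked form, stood at 23.4, 28.7 and 44.4 CPM in the controls and at 55.5, 31.1, 56.3 and 39.8 CPM with rilmenidine. Its log2 fold change was 0.55 ± 0.21 (SE; adjusted p = 0.349), with 2 of 4 rilmenidine kidneys above every control. Rps4l, annotated as a transcribed pseudogene and hence no member, had -0.66 ± 0.45 (SE; adjusted p = 0.633) on 73 counts. Rps6, the substrate of the S6 kinases below mTORC1, held 7 counts on its own row and 72 on its copies, and its log2 fold change with copies was 0.28 ± 0.44 (SE; adjusted p = 0.883), a difference not detectable at this depth.

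The 23 members that failed the filter were for the most part genes whose copies held more counts. The 14 of the large subunit were Rpl5, Rpl10a, Rpl10l, Rpl22l1, Rpl23a, Rpl24, Rpl27, Rpl28, Rpl35, Rpl35a, Rpl36a, Rpl38, Rpl39l and Rpl7a, with 0 to 57 counts each over the 10 kidneys. The 9 of the small subunit were Rps6, Rps7, Rps12, Rps13, Rps16, Rps23, Rps27, Rps27a and Rps29, with 7 to 54 counts. In 20 of these 23, the copies held more counts than the gene. Whether the reads counted on a copy came from the gene's own mRNA was not tested. Rps29 held 27 counts and Gm14303, which is identical to it over the coding sequence shown above, 9085. Rps13 held 31 counts and Rps13-ps2 6105. Rps27a, which encodes ubiquitin fused to a ribosomal protein, held 24 counts and its copies together 2892. Over all 82 members, the copies held more counts than the gene in 39. The copies took 0.415% ± 0.0621 (SD, n = 6) of the control counts and 0.514% ± 0.0371 (SD, n = 4) of the rilmenidine counts, beside the 0.750% and 0.889% on the members themselves.

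Once each member was summed with its copies, 77 of 82 members could be tested, 18 more than before. Their log2 fold change was above 0 in 70 of 77, against 50.3% of all genes in that fit, and 37 were higher at an unadjusted p under 0.05, against 4.43%, with 1 lower, Rpl10, against 6.16%. None had an adjusted p under 0.05 by edgeR's quasi-likelihood test. The medians were 0.31 for the large and 0.32 for the small subunit. Rps29 with its copies stood at 358, 403 and 513 CPM in the controls and at 594, 538, 545 and 455 CPM with rilmenidine, a log2 fold change of 0.37 ± 0.13 (SE; adjusted p = 0.325). Rpl11 with its copies stood at 170, 173 and 253 CPM in the controls and at 266, 268, 285 and 254 CPM with rilmenidine, a log2 fold change of 0.46 ± 0.14 (SE; adjusted p = 0.277), and the groups no longer overlapped. Rpl19, an exit tunnel protein at -0.08 ± 0.31 (SE) on its own 120 counts, came to 0.54 ± 0.15 (SE; adjusted p = 0.248) with its copies.

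For some members the split of counts between gene and copy differed from kidney to kidney. Rpl26, at the tunnel exit, stood at 9.01 CPM in control 3 and 11.1 CPM in rilmenidine 3, and between 59.2 and 169 CPM in the other kidneys. Its copy Gm15772 stood at 161 and 265 CPM in those 2 kidneys, and at its lowest, 18.8 and 11.5 CPM, in controls 1 and 6, where Rpl26 was at its highest. The gene alone ranged 18.8-fold over the 10 kidneys, the copy 22.9-fold and their sum 1.84-fold. On its own row Rpl26 had a log2 fold change of -0.21 ± 0.54 (SE; adjusted p = 0.933), and with its copies 0.41 ± 0.13 (SE; adjusted p = 0.291).

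Rpsa, a small subunit protein that is also known as the laminin receptor, was highest in controls 3 and 4 and rilmenidine 2, at 225, 293 and 226 CPM, and at 127 to 178 CPM elsewhere. In those same 3 kidneys Rpsa-ps10 stood at 29.5, 21.3 and 22.5 CPM, against 154 to 272 CPM elsewhere. The sum ranged 1.81-fold and the copy 12.8-fold. Rpsa had -0.06 ± 0.20 (SE; adjusted p = 0.954) on its own and 0.17 ± 0.16 (SE; adjusted p = 0.764) with all its copies.

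Rps3a1, a platform protein, differed from these pairs in that its sum stayed uneven. It stood at 35.5, 44.4 and 64.7 CPM in the controls and at 56.7, 36.5, 32.1 and 32.7 CPM with rilmenidine. Rps3a3 stood at 70.9 and 20.7 CPM in controls 1 and 2, at 75.6, 97.8 and 79.6 CPM in rilmenidine 2, 3 and 4, and at 0.571 to 3.67 CPM in the other 5 kidneys. The log2 fold change of Rps3a1 was -0.27 ± 0.20 (SE; adjusted p = 0.663) on its own and 0.71 ± 0.24 (SE; adjusted p = 0.306) with its copies, so that its direction depended on whether the copy was counted.

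**Figure D4:**
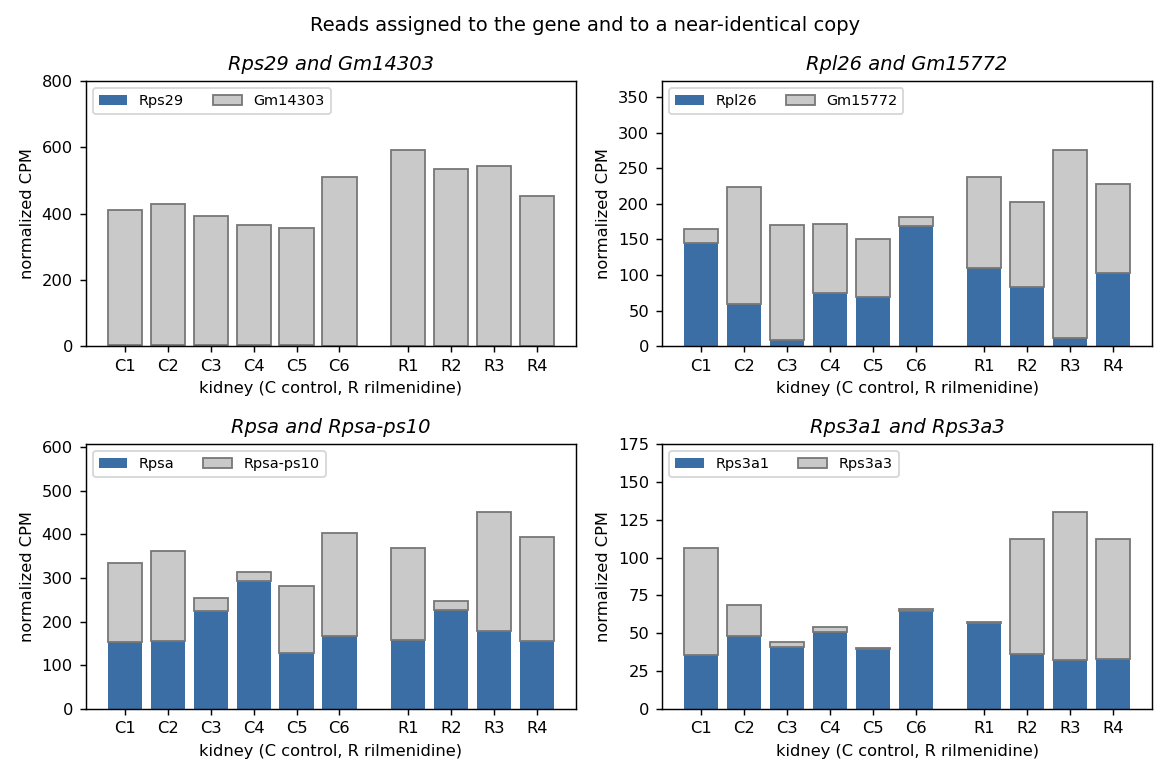
Normalized CPM of Rps29, Rpl26, Rpsa and Rps3a1 (blue) with 1 near-identical copy each stacked on top (grey), by kidney. Gm14303 holds nearly all the counts of its pair with Rps29 in every kidney. The split for Rpl26 and Rpsa differs from kidney to kidney under a steadier sum, which ranges 1.84-fold and 1.81-fold.

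Some members fell into widely separated levels among the kidneys, with kidneys of both groups at each level. Ordered by log2 CPM, 6 of 59 members (10.2%) had a gap of at least 1 between neighbouring kidneys with 2 or more kidneys on each side, against 0.905% of all genes tested and 1.75% of the other genes with a near-identical copy. These were Rps2, Rpl29, Rpl26, Rpl3, Rpl21 and Rps18, and the measure was chosen after their values were seen. Rps2 (chr17:24718116-24721929), a protein at the mRNA entry, stood at 158, 97.0, 183 and 244 CPM in controls 1, 2, 4 and 6 and at 274 CPM in rilmenidine 3, and at 12.3, 11.99, 9.73, 9.12 and 8.33 CPM in controls 3 and 5 and rilmenidine 1, 2 and 4. Rps18 (chr17:33951999-33956001), a head protein on the same chromosome, was low in the same 5 kidneys, at 4.29 to 7.42 CPM against 23.1 to 67.0 CPM. Of all genes tested, 1 other had a gap of that size between the same kidneys: H2-K1 (chr17:33996017-34000347), a class I histocompatibility gene, at 28.9 to 46.7 CPM in these 5 and 152 to 233 CPM in the others.

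Rpl21 was low in controls 3 and 4 and rilmenidine 1 and 2, at 5.36 to 8.19 CPM against 27.4 to 62.2 CPM. The 1 gene that shared its low kidneys with such a gap was Azgp1 (chr5:137981520-137990233), on the same chromosome as Rpl21, at 1.72 to 6.55 CPM against 38.5 to 93.3 CPM. Rpl29 stood at 2.22, 1.15 and 1.72 CPM in controls 1 and 6 and rilmenidine 1, and at 20.1 to 53.5 CPM in the others. Rpl3 stood at 0 CPM in control 5 and 0.573 CPM in rilmenidine 1, and at 4.92 to 11.9 CPM in the others. Low kidneys were found in both groups for each of these 6 genes. Their fold changes carried the widest errors of the family, from -0.62 ± 0.89 (SE; adjusted p = 0.861) for Rps2 to 1.01 ± 0.62 (SE; adjusted p = 0.595) for Rpl29. With copies summed, Rps2, Rps18 and Rpl29 still had a gap of at least 1, here on log2 of CPM plus 1. That was 3 of 77 members (3.90%), beside 0.905% of all genes tested on the first scale. Genotypes of the mice were not used here, and their part in these levels was not tested.

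**Figure D5:**
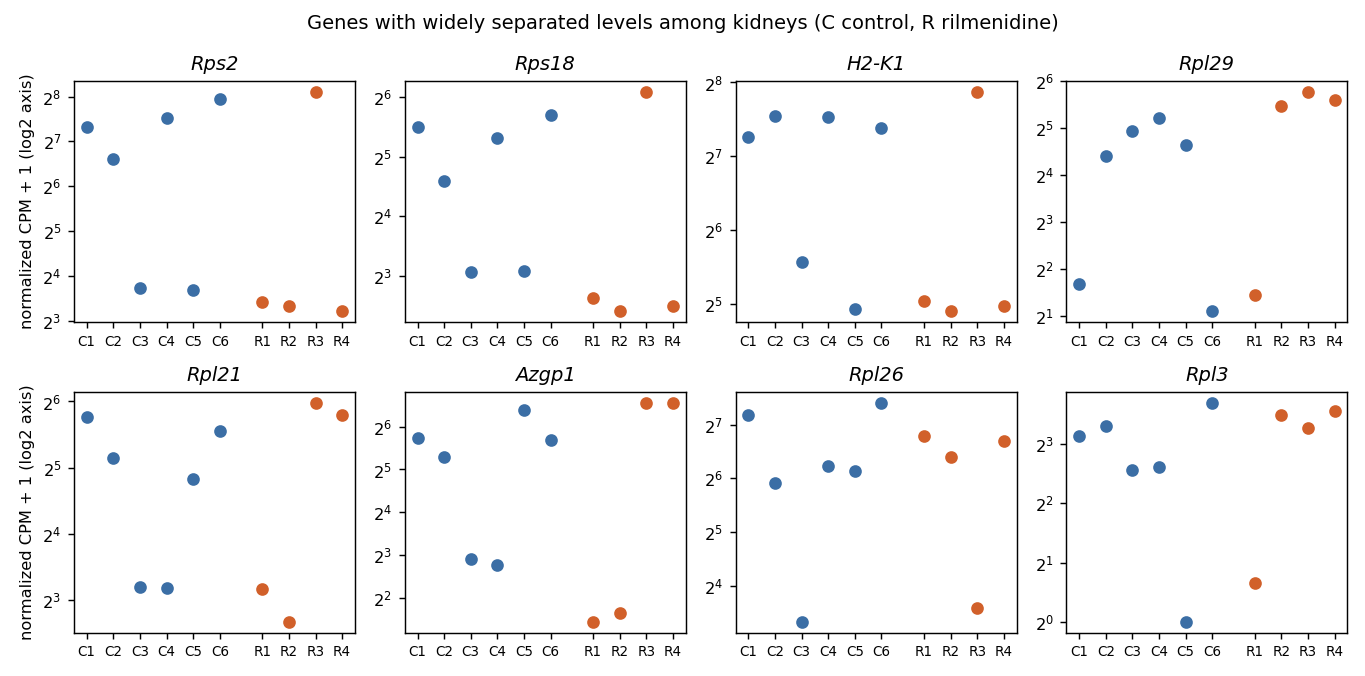
Normalized CPM plus 1 on a log2 axis by kidney for the 6 members with a gap of at least 1 on the log2 scale, beside H2-K1 and Azgp1. Rps2, Rps18 and H2-K1 are low in the same 5 kidneys, and Rpl21 and Azgp1 in the same 4.

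Genes near the family in function were read from lists. Of the ribosomal proteins and paralogs that the symbol rule leaves out, Rack1, a small subunit scaffold protein, had a log2 fold change of 0.28 ± 0.15 (SE; adjusted p = 0.524). Rpl36al and Rpl7l1 had 0.11 ± 0.20 and 0.09 ± 0.16 (SE), and Fau failed the filter with 41 counts. Of 16 tested mRNAs of the start tract class that encode no ribosomal protein, 12 were above 0, against 50.3% of all genes, with a median of 0.18. At an unadjusted p under 0.05, 1 was higher, against 4.43%: Eif3f of the eIF3 initiation complex. Eif3f stood at 38.5, 48.3 and 74.0 CPM in the controls and at 81.9, 60.6, 67.0 and 70.3 CPM with rilmenidine, a log2 fold change of 0.44 ± 0.18 (SE; adjusted p = 0.415). Gas5, a noncoding host of small nucleolar RNAs, had -0.17 ± 0.25 (SE; adjusted p = 0.869).

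Of 38 tested ribosome biogenesis genes, 19 were above 0, against 50.3% of all genes, and at an unadjusted p under 0.05 1 was higher, against 4.43%, and 0 lower, against 6.13%. The one was Nop10, of the pseudouridylation complex, at 0.45 ± 0.18 (SE; adjusted p = 0.39). Nob1, the nuclease that finishes small subunit RNA, had -0.43 ± 0.21 (SE; adjusted p = 0.477). Of 12 tested genes that control ribosomal protein synthesis, such as LARP1, MYC and mTORC1 subunits, 3 were above 0, against 50.3% of all genes. The median was -0.14, and 2 were lower at an unadjusted p under 0.05, against 6.13% of all genes. This list had a median transcript length of 6098 bases, against 3025 for all genes tested, and the part of length was not tested. Larp4, which binds poly(A) tails, stood at 77.8, 93.2 and 116 CPM in the controls and at 50.4, 60.1, 63.2 and 80.5 CPM with rilmenidine, a log2 fold change of -0.54 ± 0.16 (SE; adjusted p = 0.272). Tsc2, a brake on mTORC1, had 0.35 ± 0.21 (SE; adjusted p = 0.582). No gene of these lists had an adjusted p under 0.05 by edgeR's quasi-likelihood test.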

How the data were processed

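Gene counts of 10 kidney libraries were deposited by the authors, who trimmed reads with Trimmomatic 0.32, mapped them to mm10 with STAR 2.5.2b and counted them per gene with featureCounts 1.5, after bcl2fastq 1.8.4 (processing notes and methods). Per the labels the libraries follow Hashimshony et al., a method that reads 3′ ends. The annotation, the treatment of reads with several placements, the strand setting and any collapsing of molecular identifiers are not given in the sources used here. The study's methods state more control kidneys than the 6 analysed here. Reads of near-identical genes can be split between them or left out by such counting.

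Genes with at least 6 counts in 7 of the 10 kidneys were tested with edgeR 4.0.16 (R 4.3.3; RLE factors, quasi-likelihood F test, no covariates, Benjamini-Hochberg adjustment over all genes). The SE printed with a log2 fold change was worked back from this test. It is the absolute log2 fold change divided by the square root of the F statistic. CPM are RLE-normalized, and log2 CPM add a prior count of 2. DESeq2 1.42.0 was an alternative. Copies were found with BLAST+ 2.17.0. The quasi-likelihood fit was tested on simulated data: of 200 genes changed by 1 on the log2 scale in the comparison of rilmenidine with control, it recovered 57% among 9777 genes. Changes between 0 and 1, such as the median of 0.29 over the tested members, were not simulated. Shares have exact 95% binomial intervals, which cover counting error only. Controls and treated mice shared replicate numbers without a stated pairing.

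Named genes were, per subunit, the 4 tested members with the smallest p among those higher, the 3 among those lower and the 3 with the highest CPM, the paralog pairs, members of known roles, the gene of each further list with the smallest p in each direction, and Malat1. Genes shown for their copies or gaps were chosen after their values were seen. The members and lists were chosen with earlier results of these data known. Some genes that the rule names are not reported here. Other settings were another normalization, 2 other filters, 2 other tests, library size or Malat1 as a covariate, only those 7 libraries in which odorant and pheromone receptor genes summed to 10 CPM or more, a replicate block, leaving out each kidney and, added after seeing the data, summing members with their copies.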

Additional observations from a re-analysis of the deposited data

Results flagged for a closer look

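Of the values compared, 5 lay far from the other kidneys of their group by Dixon's test, which was run on 82 sets of values and flags about 1 in 20 by chance. Rilmenidine 3 stood at 273.6 CPM for Rps2, against 8.33 to 9.73 CPM in the other 3 rilmenidine kidneys, and at 67.0 CPM for Rps18, against 4.29 to 5.15 CPM. These are the 2 members with low levels in the same 5 kidneys. Control 1 stood at 12.2 CPM for Rps4l, against 3.08 to 5.13 CPM in the other controls, and at 97.5 CPM for Gas5, against 39.3 to 57.0 CPM. Control 4 stood at 45.5 CPM for Nob1, against 22.3 to 29.6 CPM.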

How the results depend on the processing

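TMM normalization, a threshold of 0.1 and a filter of 10 counts in every kidney called no member. DESeq2 called 1 member and 60 genes, the likelihood ratio test 0 and 44, and a filter of 1 count in any kidney 4 (Rplp1, Rps14 and Rpl29 higher, Rps2 lower) and 241. Of these 4, Rpl29 and Rps2 had widely separated levels, with low kidneys in both groups. Leaving out 1 kidney gave 0 to 1 called members and 0 to 37 genes. Without control 6, Rplp1 was called (adjusted p = 0.0457) with 37 genes, without control 2 33 genes and without rilmenidine 1 6 genes. Members higher at an unadjusted p under 0.05 numbered 24 (beside 4.43% of all genes), and 2 with Malat1 (1.48%), 4 with library size (2.17%), 37 of 77 with copies (4.43%) and 11 to 26 on leaving out a kidney (11 without rilmenidine 1, 15 without rilmenidine 3). Lower ones numbered 3 with the filter of 1 count, 0 with 10 counts or library size and 2 with the replicate block. Within the 7 libraries with odorant and pheromone receptor reads (5 control, 2 rilmenidine) they numbered 4. On leaving out a kidney they numbered 0 to 3. The large subunit median was 0.069 with Malat1, and 0.22 to 0.37 on leaving out a kidney. The mean share was 0.925% in controls and 1.11% with rilmenidine without the 10 genes of highest share, and 1.16% and 1.40% with copies. The start tract stood in 35.1% of promoters within 3 bases, and 84.1% of members had a copy at 98% identity. The cause of these shifts was not tested.

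Some directions turned. With Malat1 in the fit the log2 fold change was -0.042 for Rpl4, -0.41 for Rpl3, -0.096 for Rpl39, -0.060 for Rplp2, -0.032 for Rpl11, 0.049 for Rpsa and -0.016 for Tsc2. With library size it was -0.32 for Rpl3, 0.18 for Rps4l, -0.015 for Rplp2, 0.11 for Rpsa and 0.19 for Gas5. Within the libraries with receptor reads (5 control, 2 rilmenidine) it was 0.11 for Rps3a1, -0.091 for Rpl39, 0.0091 for Rpsa and 0.18 for Gas5. With copies it was 0.27 for Rpl7, 0.24 for Rpl12, 0.54 for Rpl19, 0.41 for Rpl26, 0.013 for Rpl30, 0.71 for Rps3a1 and 0.17 for Rpsa. On leaving out a kidney it ranged from -0.038 to 0.59 for Rpl3, -0.092 to 0.29 for Rpl39, -0.18 to 0.12 for Rpsa and -0.35 to 0.027 for Gas5. The replicate block called 0 members and 3 genes. Same-numbered kidneys had correlations of 0.076, 0.077, -0.077 and -0.0070 and none was closest to its own number, so that the numbers were not taken to pair the kidneys. Of the 23 members under the filter, 5 could not be tested even with copies summed.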
